A study of Mus musculus with 3 samples.

Results

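The 10 genes described here, of 32285 in the count matrices, were the immediate early response genes Fos, Fosb, Jun, Junb, Jund, Egr1, Ier2, Atf3, Zfp36 and Dusp1. They were chosen by name and followed in single-cell RNA-seq libraries of the E15.5 mouse kidney, over cell types and over 3 groups. The choice was made with the levels of some of these genes in these libraries already known, so that the values below describe them and carry no test. The control library, Enl-WT, came from Enl+/+ kidneys, and the Enl-T1 library from kidneys that carried 1 conditional Enl-T1 allele (Enl flox-T1/+). The Enl-T1 TDI-11055 library came from Enl-T1 kidneys of litters whose mothers had received the ENL inhibitor TDI-11055 by mouth at 100 mg/kg each day from E10.5 to E14.5 (embryonic days). All 3 groups, controls included, carried the Wt1GFPCre/+ knock-in. It replaces 1 working copy of Wt1 and expresses Cre from the Wt1 promoter, so the allele is switched on in nephron and stromal cells and their precursors, whereas the ureteric epithelium and endothelium do not descend from Wt1-expressing cells. Kidneys were pooled, of either sex, and cells were not tied to embryos. The balance of cells with Xist and cells with Y-linked transcripts differed between the libraries, as given further on. Each group was 1 library, so there was no replicate check. The 95% intervals given in parentheses cover counting error only.

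ENL, the product of Mllt1, reads acetylated histones and works with elongation complexes, and the T1 form is a Wilms tumour mutation within its reader domain. Immediate early genes are switched on within minutes of a stimulus without new protein synthesis, largely by release of paused RNA polymerase, through serum response factor and its ternary complex partners, through CREB, or through the MAP kinases. Fos and Jun proteins pair to form AP-1, EGR1, IER2 and ATF3 act on transcription, and ZFP36 and DUSP1 shut the response down. The same genes are known to be switched on by enzymatic tissue dissociation at body temperature. The kidneys here were dissociated with enzymes at 37 °C and red cells were lysed before capture. A contribution of dissociation to any value below was not tested, and with 1 library per group it cannot be told apart from the group.

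The sequences before the start sites of Fos, Fosb and Jun are shown because the ratios of these members to each other are described further on. RefSeq (GRCm38.p6) gave a window of 250 bases before and 50 bases after the start for 8 of the 10 members. The 250 bases before the start follow, 5′ to 3′ in the direction of transcription, with motif matches in capitals. They lie at chr12:85473640-85473889 on the plus strand for Fos, chr7:19310046-19310295 on the minus strand for Fosb and chr4:95052223-95052472 on the minus strand for Jun.
Fos: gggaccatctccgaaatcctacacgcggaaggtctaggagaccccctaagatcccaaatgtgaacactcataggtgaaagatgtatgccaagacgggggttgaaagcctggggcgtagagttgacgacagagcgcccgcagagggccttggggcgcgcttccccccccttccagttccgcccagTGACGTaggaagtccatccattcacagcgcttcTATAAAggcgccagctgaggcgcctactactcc
Fosb: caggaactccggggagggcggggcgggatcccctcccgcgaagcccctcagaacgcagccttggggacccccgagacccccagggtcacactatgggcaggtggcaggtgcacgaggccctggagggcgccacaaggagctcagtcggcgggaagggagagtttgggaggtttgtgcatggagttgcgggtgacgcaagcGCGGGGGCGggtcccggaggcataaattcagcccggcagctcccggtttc
Jun: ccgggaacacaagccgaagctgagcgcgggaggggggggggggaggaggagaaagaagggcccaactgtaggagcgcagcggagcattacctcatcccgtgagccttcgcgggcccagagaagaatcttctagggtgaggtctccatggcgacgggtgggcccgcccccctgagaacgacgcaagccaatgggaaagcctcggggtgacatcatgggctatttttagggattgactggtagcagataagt
Letters were searched on both strands. The Fos window held TGACGT, the core of the cAMP response element, from -66 to -61 and TATAAA from -33 to -28 relative to the start. The Fosb window held the EGR motif GCGNGGGCG from -50 to -42, and the Jun window held none of the letters searched. Of the other 5 members with a window, Dusp1 was the only member with the whole element TGACGTCA, which contains TGACGT. Zfp36 was the only member whose window held a CArG box, the serum response factor motif. Sites further from the start were not searched for any member, and Egr1 and Ier2 had no window. The windows given for Zfp36, Jund, Atf3 and Dusp1 do not lie at the gene start of the mm10 annotation. Their matches and missing matches may therefore not concern the promoter in use. The windows of Junb and Fosb differ from that annotation by a short distance only. Over all 32851 windows, TGACGT was found in 7.51%, TGACGTCA in 1.79%, GCGNGGGCG in 5.55%, TATAAA in 13.6% and the CArG box in 1.63%. The AP-1 letters TGANTCA were found in 7.81% of all windows and in 0 member windows.

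The matrices held whole unique molecular identifier (UMI) counts, each UMI standing for 1 captured transcript end. Cells with 1000 to 6000 genes and at most 10% mitochondrial UMIs were kept, which left 5233 of 7186 barcodes of Enl-WT, 4144 of 6575 of Enl-T1 and 2754 of 6453 of Enl-T1 TDI-11055. Median depth differed, at 5090, 9391 and 16931.5 UMIs per cell in that order, and between 5 and 8 barcodes were shared by any pair of libraries. Mllt1 was measured at 27.1, 20.1 and 18.3 CPM (UMIs of a gene per 1000000 UMIs of the same cells) in the nephron, and both alleles add to that count. Libraries also differed in makeup. Ribosomal protein genes took 166693 CPM of the nephron in Enl-WT, and 308888 and 297505 CPM in Enl-T1 without and with TDI-11055, and the median of all genes in Enl-T1 over Enl-WT lay at -0.30 to -0.40 on the log2 scale in the 4 lineages. Ratios of members are therefore given beside that median. In Enl-T1 TDI-11055, 597 of 1338 nephron cells had under 1% mitochondrial UMIs, against 26 of 2219 in Enl-WT and 97 of 1300 in Enl-T1. Some levels, medians and ratios are also given without those cells. All other values include them, among them the shares of cells and the counts per cell.

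Cells fell into a nephron lineage (2219 cells of Enl-WT, 1300 of Enl-T1 and 1338 of the treated library), a stromal lineage (871, 1397 and 273), the ureteric epithelium (1739, 1172 and 1022) and endothelial cells (395, 257 and 116). Clusters were made without the genes studied here and were called by marker genes, written with "-like". Their members were summed per lineage and library before CPM were taken. All 10 members passed the minimum mean of 5 CPM in all 4 lineages.

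In all 3 libraries the summed level of the 10 genes was lowest in the nephron, followed by endothelial cells and stroma, and was highest in the ureteric epithelium, with no overlap of neighbouring intervals. In Enl-WT the sum was 2652 CPM (2625 to 2679) in the nephron, 4679 CPM (4600 to 4758) in endothelial cells, 4865 CPM (4798 to 4933) in stroma and 5468 CPM (5425 to 5512) in the ureteric epithelium. The ureteric epithelium therefore stood at 2.06 times the nephron level in Enl-WT, against 4.54 times in Enl-T1 and 3.84 times in the treated library.

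**Figure D1:**
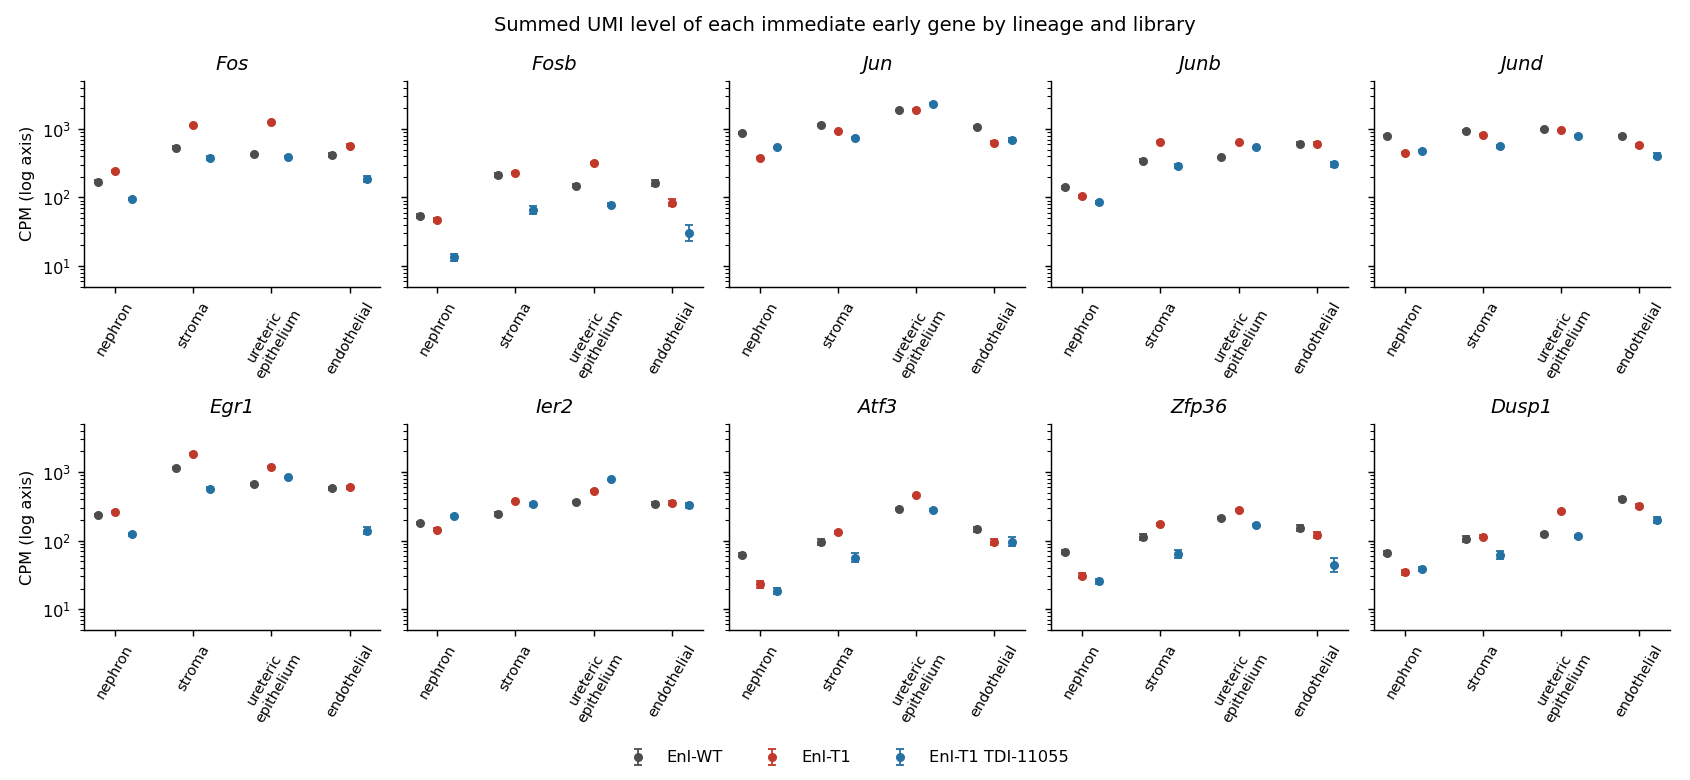
Summed UMI level of each of the 10 genes (CPM, log axis) in nephron, stroma, ureteric epithelium and endothelial cells, 1 point per library, with 95% exact Poisson intervals for counting error. Fos in the ureteric epithelium stood at 1259 CPM in Enl-T1, above 424 CPM in Enl-WT and 396 CPM in Enl-T1 TDI-11055, whereas Jun in the same cells stood at 1906, 1863 and 2339 CPM.

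Among the FOS proteins, which need a JUN partner to bind DNA, Fos was measured in the nephron at 170 CPM in Enl-WT, 243 CPM in Enl-T1 and 94.6 CPM in Enl-T1 TDI-11055. In stroma its levels were 532, 1126 and 375 CPM in the same order, in the ureteric epithelium 424, 1259 and 396 CPM, and in endothelial cells 415, 570 and 186 CPM. Enl-T1 was the highest library for Fos in each of the 4 lineages, with intervals apart from those of both other libraries. Within Enl-WT the Fos levels of endothelial cells and ureteric epithelium were not apart. Fosb, which encodes a second FOS protein, stood at 53.1, 46.9 and 13.3 CPM in the nephron and at 149, 315 and 77.8 CPM in the ureteric epithelium. It stood at 216, 226 and 65.2 CPM in stroma and at 162, 83.5 and 30.8 CPM in endothelial cells. Enl-T1 TDI-11055 was the lowest library for Fosb in all 4 lineages. By lineage sums, Enl-T1 was well above Enl-WT in the ureteric epithelium alone. Within the nephron progenitors called NP1-like, however, Fosb stood at 25.8 CPM in Enl-WT and 42.3 CPM in Enl-T1.

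Among the JUN proteins, which can also pair with each other, Jun was measured at 872, 381 and 541 CPM in the nephron, so that Enl-WT was highest there. Jun stood at 1140, 930 and 742 CPM in stroma, at 1863, 1906 and 2339 CPM in the ureteric epithelium and at 1073, 628 and 691 CPM in endothelial cells. Junb, a weaker activator that can oppose JUN, stood at 141, 105 and 85.6 CPM in the nephron, 343, 655 and 285 CPM in stroma, 383, 636 and 542 CPM in the ureteric epithelium and 605, 610 and 304 CPM in endothelial cells. Jund, the member known for steady expression in resting cells, varied least over lineages. Its ureteric level was 1.23 times its nephron level in Enl-WT, against 1.84 to 4.67 times for the other 9 members. Jund stood at 798, 449 and 483 CPM in the nephron, 922, 824 and 555 CPM in stroma, 985, 949 and 792 CPM in the ureteric epithelium and 790, 580 and 409 CPM in endothelial cells.

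Egr1, a zinc finger activator downstream of ERK, stood at 238, 260 and 124 CPM in the nephron and 1151, 1850 and 573 CPM in stroma. It stood at 669, 1198 and 839 CPM in the ureteric epithelium and at 578, 603 and 140 CPM in endothelial cells. Stroma had the highest Egr1 level in Enl-WT and Enl-T1, but in Enl-T1 TDI-11055 the ureteric epithelium did. Ier2, a nuclear regulator, stood at 181, 145 and 228 CPM in the nephron, 247, 373 and 339 CPM in stroma, 367, 539 and 787 CPM in the ureteric epithelium and 348, 356 and 329 CPM in endothelial cells. Atf3, a stress-induced member of the ATF/CREB family, stood at 62.4, 23.1 and 18.3 CPM in the nephron and at 292, 458 and 279 CPM in the ureteric epithelium. It stood at 95.4, 133 and 56.6 CPM in stroma and at 146, 95.4 and 96.7 CPM in endothelial cells.

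The members that end the response followed the same lineages in part. Zfp36, which binds AU-rich elements and speeds the decay of early transcripts, stood at 68.4, 30.8 and 25.3 CPM in the nephron, 113, 174 and 63.2 CPM in stroma, 212, 280 and 170 CPM in the ureteric epithelium and 154, 120 and 44.2 CPM in endothelial cells. Dusp1, which dephosphorylates MAP kinases, was the only member highest in endothelial cells in all 3 libraries, at 409, 317 and 201 CPM. It stood at 66.8, 34.6 and 38.8 CPM in the nephron, at 107, 114 and 62.3 CPM in stroma and at 123, 267 and 115 CPM in the ureteric epithelium.

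Within the lineages the summed level was lowest in NP1-like cells (nephron progenitors marked by genes such as Six2 and Cited1) in all 3 libraries, at 1829 CPM in Enl-WT, 1562 CPM in Enl-T1 and 1289 CPM in Enl-T1 TDI-11055. It was highest in the ureteric trunk/collecting duct-like cluster led by Sprr2f, at 7916, 9517 and 11258 CPM. The highest class was thus 4.33, 6.09 and 8.73 times the lowest among the 12, 12 and 9 classes with at least 50 cells. NP1-like cells were also the lowest class for Fos, Fosb, Jun, Junb, Atf3, Zfp36 and Dusp1 in each library. This class held 917, 1074 and 811 cells. No cluster was called by the 6 markers of committed progenitors, such as Wnt4 and Lhx1. These markers summed to 733, 645 and 510 CPM of the nephron. NP1-like cells may thus include committed progenitors and the abnormal progenitors that the paper describes, and the makeup within this class was not compared. Fos in NP1-like cells stood at 106, 218 and 58.8 CPM, and Atf3 spanned 20.9, 31.7 and 94.4 times between its lowest and highest class. Proximal tubule-like cells of Enl-T1 TDI-11055 stood apart, with a median mitochondrial share of 0.339% and 1844 genes per cell against 5.97% and 2654.5 genes in Enl-WT, and 194 of those 285 cells had under 1% mitochondrial UMIs.

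**Figure D2:**
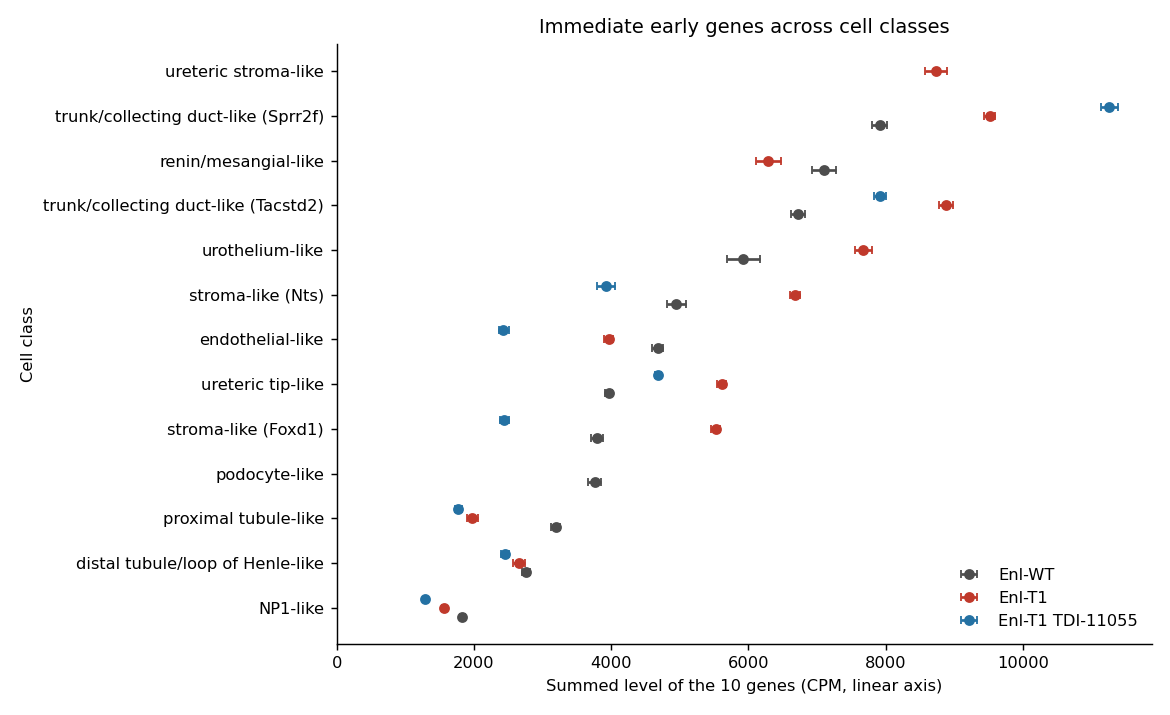
Summed level of the 10 genes (CPM, linear axis) in each cell class with at least 50 cells, 1 point per library, with 95% exact Poisson intervals. NP1-like cells sit lowest, between 1289 and 1829 CPM, and the Sprr2f ureteric trunk/collecting duct-like cluster sits highest, between 7916 and 11258 CPM.

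The comparison of Enl-T1 with Enl-WT addresses what the mutant allele changes in the developing kidney. For these genes the members parted: Fos was higher in Enl-T1 in each lineage, Jun and Jund were lower in nephron and endothelial cells, and most other members were higher in stroma and ureteric epithelium. The ratio of Fos was 1.43 (1.354 to 1.504) in the nephron, 2.12 (2.02 to 2.22) in stroma, 2.97 (2.87 to 3.06) in the ureteric epithelium and 1.38 (1.28 to 1.48) in endothelial cells. In the endothelial cells that had Xist but lacked Y-linked UMIs, the libraries did not differ by value in this way, with a log2 ratio of -0.02. Fos was also the member whose interval lay above 1 in 11 of 11 classes, from 1.31 in renin/mesangial-like cells to 3.44 in ureteric tip-like cells.

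In the nephron, 0 of 10 members were at least 1.5-fold higher in Enl-T1 and 5 were at least 1.5-fold lower, against 5.66% and 38.2% of the 10433 genes compared. Those 5 were Jun (0.437), Jund (0.563), Atf3 (0.370), Zfp36 (0.451) and Dusp1 (0.518). The median of the members was -0.63 on the log2 scale and that of all genes -0.40. The nephron value depended on which cells were summed, since it was -0.11 with the nephron classes weighted equally. Podocyte markers (8 of 8 measured) summed to 1359 CPM of the nephron in Enl-WT, 44.5 CPM in Enl-T1 and 104 CPM in Enl-T1 TDI-11055, and the 8 proximal tubule markers to 794, 24.7 and 62.7 CPM with none at 0. Within NP1-like cells, whose own makeup may also differ between libraries, the ratios were 2.05 for Fos, 1.25 for Egr1, 0.645 for Jun and 0.614 for Jund. In the same cells, Atf3 stood at 22.9 CPM in Enl-WT and 20.8 CPM in Enl-T1. Zfp36 stood at 20.9 and 24.8 CPM, and Dusp1 at 24.8 and 28.7 CPM. In proximal tubule-like cells the ratios were 0.282 for Atf3 and 0.378 for Zfp36.

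In stroma, 5 members were at least 1.5-fold higher and 0 lower, against 6.94% and 29.3% of genes. The 5 were Fos, Junb (1.91), Egr1 (1.61), Zfp36 (1.54) and Ier2 (1.51), and the median of the members was 0.53 beside -0.30 for all genes. Jun (0.816) and Jund (0.894) had intervals below 1, but with size factors in place of totals their log2 ratios were 0.01 and 0.14. The makeup of stroma differed too. The 6 renin/mesangial markers summed to 1456, 320 and 373 CPM of stroma in Enl-WT, Enl-T1 and the treated library, with Rgs4 at 0 in the last, and the 6 ureteric stroma markers to 797, 364 and 294 CPM with none at 0. There were 172, 83 and 20 renin/mesangial-like cells and 30, 162 and 3 ureteric stroma-like cells. Within the Foxd1 cluster the ratios were 2.56 for Fos, 2.18 for Junb and 1.79 for Egr1, and within the Nts cluster 2.13, 2.25 and 1.51. In the ureteric epithelium, 6 members were at least 1.5-fold higher and 0 lower, against 5.74% and 26.9% of 10457 genes. They were Fos, Dusp1 (2.17), Fosb (2.12), Egr1 (1.79), Junb (1.66) and Atf3 (1.57), with a median of 0.69 beside -0.30. Jun there was 1.02 (1.00 to 1.04) and Jund 0.963. The ureteric epithelium held more urothelium-like cells in Enl-T1, 115 against 57 in Enl-WT and 17 in Enl-T1 TDI-11055, and the 7 urothelium markers summed to 521, 110 and 46.3 CPM, with Krt5 at 0 in Enl-T1 TDI-11055. Within ureteric tip-like cells, which form a class of their own, Fos was 3.44 times and Egr1 2.02 times as high in Enl-T1.

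In endothelial cells, 0 members were at least 1.5-fold higher and 3 were lower, namely Fosb (0.516), Jun (0.586) and Atf3 (0.653), against 5.86% and 29% of 9895 genes. The median of the members, -0.36, was close to that of all genes, -0.31. Jund was below 1 by its interval in 9 of 11 classes of the kidney and above it in 0, and Jun was below in 9 and above in 2, on the scale of CPM. No share over all genes was taken per class, and the median of all genes itself lay at -0.30 to -0.40 in the lineages. With size factors in place of totals, the log2 ratio of Jund was 0.14 in stroma and 0.26 in the ureteric epithelium. In the nephron it stayed below 0.

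The comparison of Enl-T1 TDI-11055 with Enl-T1 addresses what the inhibitor changes in the mutant kidney. The labels call both other libraries untreated in their titles, whereas the protocol names a vehicle, so that the inhibitor and its dosing by mouth cannot be told apart here. It shares the Enl-T1 library with the comparison above, so a gene that is high in that library is raised in one ratio and lowered in the other. Fos and Fosb were lower in the treated library in all lineages and in the 9 classes with at least 50 cells in both libraries. Smaller classes were not compared. Jun and Ier2, by contrast, were higher in the nephron and ureteric epithelium. Exceptions by the sex of cells were Fosb in endothelial cells with Y-linked UMIs alone, with a log2 ratio of 0.30, and Jun in such ureteric cells, with -0.02. The ratio of Fos was 0.389 (0.367 to 0.412) in the nephron, 0.333 (0.315 to 0.353) in stroma, 0.314 (0.306 to 0.323) in the ureteric epithelium and 0.326 (0.290 to 0.367) in endothelial cells. Fosb had ratios of 0.284, 0.289, 0.247 and 0.368. Over 9 classes with enough cells, the intervals of Fos and Fosb were below 1 in 9 of 9, from 0.185 and 0.167 in ureteric tip-like cells to 0.770 and 0.551 in the Sprr2f cluster.

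In the nephron, 3 members were at least 1.5-fold lower in the treated library, namely Fosb, Fos and Egr1 (0.476), and 1 was higher, Ier2 (1.57), against 7.46% and 7.32% of genes. Jun was 1.42 (1.37 to 1.47). Without the cells of under 1% mitochondrial UMIs the treated nephron level was 109 CPM for Fos and 628 CPM for Jun, the median of the members was -0.15 in place of -0.29, and 3 members were lower and 2 higher. In stroma, 7 members were lower and 0 higher, against 12.7% and 10.8% of genes. The 7 were Fosb, Egr1 (0.310), Fos, Zfp36 (0.364), Atf3 (0.427), Junb (0.435) and Dusp1 (0.547), and the median was -1.21 beside 0.02 for all genes. Only 273 stromal cells were kept in the treated library.

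In the ureteric epithelium, 5 members were lower and 0 higher, against 9.79% and 7.68% of genes. They were Fosb, Fos, Dusp1 (0.432), Zfp36 (0.606) and Atf3 (0.610), while Jun was 1.23 and Ier2 1.46, and the median of the members was -0.61 beside 0.02. That median was -0.17 with the ureteric classes weighted equally. The Sprr2f cluster was the 1 class of 9 in which the summed level was higher in the treated library, at 1.18 times, and the other 8 ranged from 0.443 in the Foxd1 stroma-like cluster to 0.924 in distal tubule/loop of Henle-like cells. In endothelial cells, 6 members were lower and 0 higher, against 18.7% and 9.32% of genes, among them Egr1 (0.233), Zfp36 (0.367), Junb (0.498) and Dusp1 (0.633) beside Fos and Fosb.

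**Figure D3:**
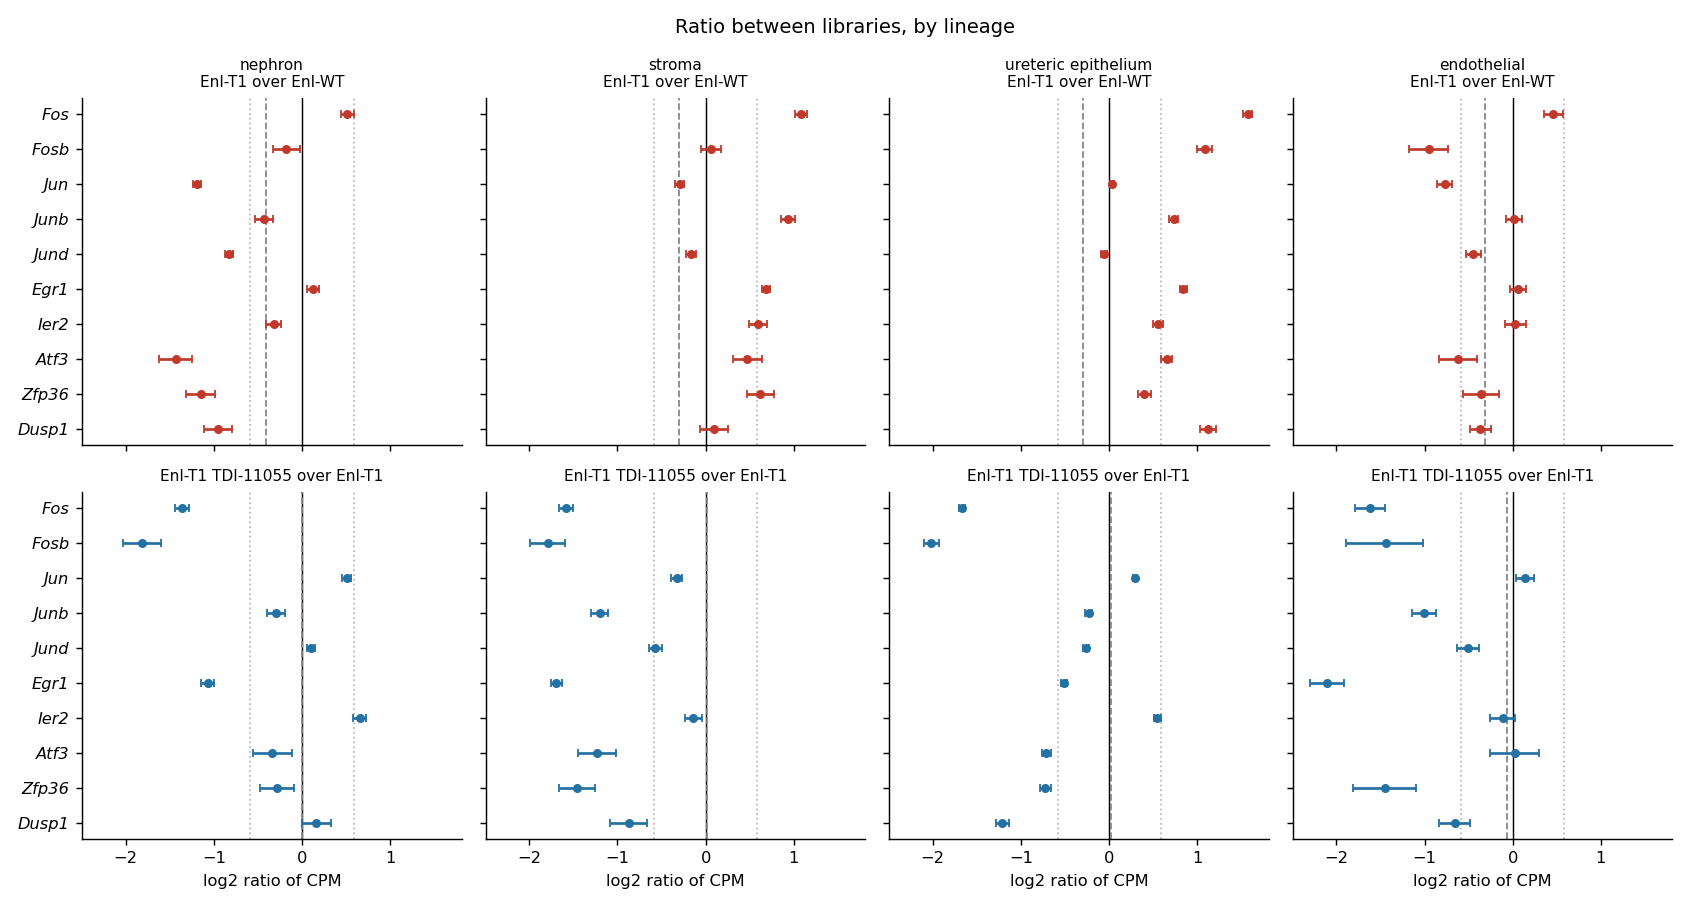
Log2 ratio of CPM for each of the 10 genes between libraries, by lineage, with 95% exact intervals for counting error, a dashed line at the median of all genes and dotted lines at 1.5-fold. Fos lies right of 0 in the 4 upper panels (Enl-T1 over Enl-WT, ratios of 1.38 to 2.97) and left of 0 in the 4 lower panels (Enl-T1 TDI-11055 over Enl-T1, ratios of 0.314 to 0.389).

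Set against Enl-WT directly, the treated library was not back at the control level for all members. Its ratio to Enl-WT was 0.555, 0.706, 0.933 and 0.449 for Fos in nephron, stroma, ureteric epithelium and endothelial cells, 0.251, 0.302, 0.523 and 0.190 for Fosb, and 1.26, 1.37, 2.15 and 0.944 for Ier2. Without the cells of under 1% mitochondrial UMIs, Fos stood at 171 CPM in the Enl-WT nephron and 109 CPM in the treated nephron. Fosb then stood at 53.3 and 15.6 CPM, and Ier2 at 181 and 238 CPM.

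Because Fos and Jun differed in direction, UMIs of Fos were set against UMIs of Jun in the same cells, which needs no library total and is untouched by the ribosomal protein share. This measure was chosen after the levels were seen. It compares libraries and says nothing of how the genes compare as proteins. In the nephron there were 19.5 Fos UMIs (18.7 to 20.4) per 100 Jun UMIs in Enl-WT, against 63.7 (61.1 to 66.5) in Enl-T1 and 17.5 (16.6 to 18.4) in the treated library. In stroma the values were 46.6, 121 and 50.6, in the ureteric epithelium 22.8, 66.0 and 16.9 and in endothelial cells 38.7, 90.8 and 26.9. Enl-T1 had the highest value in each lineage, and Enl-WT and the treated library were closer to each other than either was to Enl-T1. Enl-T1 was again highest in the classes, with 19.9, 63.3 and 13.5 in NP1-like cells, 12.0, 34.2 and 5.99 in ureteric tip-like cells and 34.3, 98.1 and 40.1 in the Sprr2f cluster. Over 8 ways of selecting or thinning cells, the nephron value ranged from 18.7 to 22.4 in Enl-WT, 45.7 to 70.7 in Enl-T1 and 15.4 to 18.7 in the treated library. In the other 3 lineages too the Enl-T1 range lay above both others. Cells of Enl-T1 with Xist alone stood at 70.7 in the nephron and 132 in stroma, and those with Y-linked UMIs alone at 45.7 and 93.1. Barcodes with under 1000 genes and a mitochondrial share within the limit, which were not kept as cells, had 95.8 CPM of Fos and 328 CPM of Jun in Enl-WT, 262 and 389 CPM in Enl-T1 and 75.4 and 237 CPM in the treated library, so the difference was also present in these low-content droplets.

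**Figure D4:**
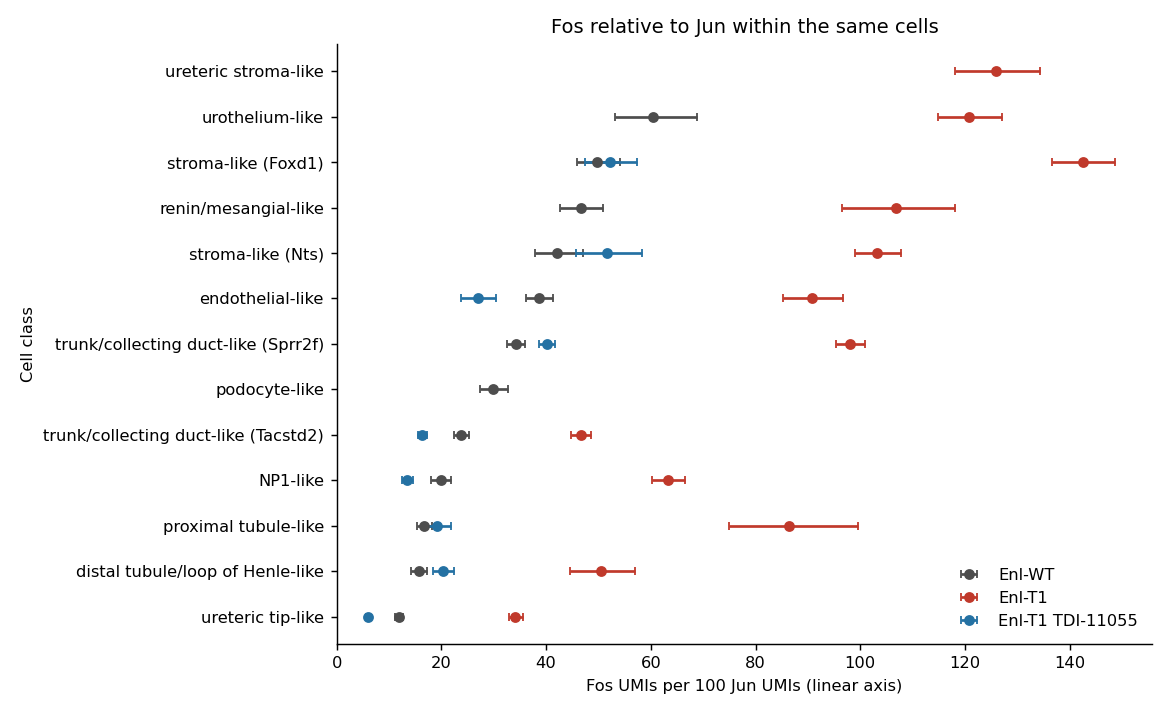
Fos UMIs per 100 Jun UMIs (linear axis) in each cell class with at least 50 cells, 1 point per library, with 95% exact intervals for counting error. The Enl-T1 point lies right of both others in each class where libraries can be compared, for example at 63.3 in NP1-like cells against 19.9 in Enl-WT and 13.5 in Enl-T1 TDI-11055.

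Other members also shifted against Jun. Per 100 Jun UMIs, Egr1 stood at 27.3, 68.1 and 22.8 in the nephron, at 101, 199 and 77.2 in stroma, at 35.91, 62.8 and 35.87 in the ureteric epithelium and at 53.9, 95.97 and 20.3 in endothelial cells, so that Enl-T1 was highest in each. Ier2 stood at 20.8, 38.1 and 42.2 in the nephron, at 21.7, 40.1 and 45.7 in stroma, at 19.7, 28.3 and 33.6 in the ureteric epithelium and at 32.5, 56.6 and 47.6 in endothelial cells. Relative to Jun, Ier2 was thus above Enl-WT in both Enl-T1 libraries. The treated library was highest in 3 lineages and untreated Enl-T1 in endothelial cells. Jun itself was lower in the nephron of Enl-T1 than of Enl-WT, with a ratio of 0.437. Ier2 in CPM had a ratio of 0.801 there. Per 100 Jun UMIs, nephron Jund stood at 91.5, 118 and 89.3. Zfp36 stood at 7.84, 8.09 and 4.68, whereas Atf3 fell, at 7.16, 6.06 and 3.38.

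Cells were then thinned to 2000 UMIs each, so that total depth no longer differed, to ask how many cells carried each transcript. Thinning does not even out the larger ribosomal protein share of the Enl-T1 libraries, which leaves fewer UMIs for other genes. Nor does it even out the makeup of the lineages by class. Between 0 and 36 cells per lineage and library were shallower and left out. A Fos UMI was found in 20.3% (18.6 to 22.0) of nephron cells in Enl-WT, against 29.98% (27.5 to 32.6) in Enl-T1 and 12.5% (10.8 to 14.4) in the treated library. Before thinning the shares were 36.4%, 66.3% and 40.2%. In stroma the thinned shares were 46.4%, 71.8% and 35.3%, in the ureteric epithelium 44.1%, 75.3% and 36.2%, and in endothelial cells 39.2%, 43.6% and 24.1%. No class here is known to lack Fos. The lowest share was that of NP1-like cells, at 15.2% in Enl-WT and 26.5% in Enl-T1, and free RNA in the droplets can give part of such shares. Jun was found in 67.7%, 45.9% and 44.3% of nephron cells and in 92.6%, 93.2% and 92.0% of ureteric cells.

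The spread of Fos over cells also differed by lineage. The 10% of thinned cells richest in Fos held 69.0% of its UMIs in the nephron of Enl-WT, 59.3% in Enl-T1 and 84.9% in the treated library, and in the ureteric epithelium 48.1%, 34.2% and 55.8%. It was 49.4%, 35.0% and 51.2% in stroma, whereas in endothelial cells it was not lower in Enl-T1, at 52.6%, 54.2% and 64.4%. This share also falls as the number of Fos UMIs rises. The members were found together. Cells with a Fos UMI carried each other member more often than cells without one in 108 of 108 comparisons over 4 lineages, 3 libraries and 9 genes, with intervals apart in 85, over cells pooled from all classes of a lineage. In the nephron of Enl-T1, Egr1 was found in 49.7% of cells with Fos and in 24.7% of those without. With Jund as the reference in place of Fos, the share was higher in 105 of 108 comparisons and intervals were apart in 49.

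Counted per thinned cell, a mean of 2.74 of the 10 genes was detected in nephron cells of Enl-WT, against 2.31 in Enl-T1 and 1.91 in the treated library. None was detected in 4.44%, 11.8% and 16.6% of them. Before thinning, the nephron means were 4.45, 5.28 and 4.55. By class, the thinned means were 2.20, 2.16 and 1.58 in NP1-like cells. They were 2.97, 3.25 and 2.58 in distal tubule/loop of Henle-like cells and 3.19, 2.58 and 2.11 in proximal tubule-like cells. Thinned ureteric cells had means of 4.87, 6.07 and 4.94, stromal cells 4.15, 5.06 and 2.83 and endothelial cells 4.43, 4.06 and 2.78. At least 5 of the 10 were found in 43.1%, 65.4% and 22.4% of stromal cells and in 56.8%, 78.5% and 57.2% of ureteric cells.

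**Figure D5:**
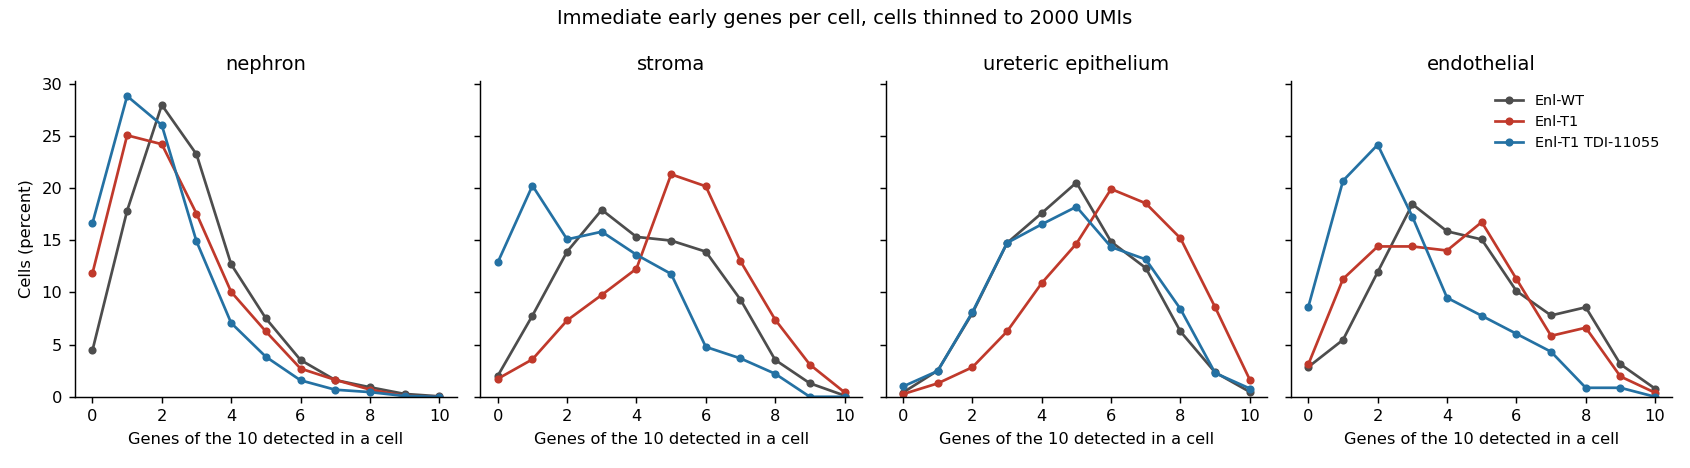
Share of cells (percent) by the number of the 10 genes detected, in cells thinned to 2000 UMIs, by lineage, 1 line per library. In stroma and ureteric epithelium the Enl-T1 line lies to the right, with means of 5.06 and 6.07 genes per cell, and in the nephron the treated library lies to the left, with a mean of 1.91.

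Levels also varied with the mitochondrial share of cells. Cells were ranked by it within each lineage and library and cut into 3 equal groups. In the ureteric epithelium the summed level went from 3988 CPM in the group of lowest share to 5339 and 6967 CPM in Enl-WT, from 6435 to 8058 and 8852 CPM in Enl-T1 and from 5251 to 5551 and 8261 CPM in Enl-T1 TDI-11055. In the nephron of the treated library it was 812, 1759 and 1845 CPM, where the lowest group had a median mitochondrial share of 0.126%. The ureteric classes differ in mitochondrial share themselves, with medians of 7.28%, 6.45% and 5.29% in the Sprr2f cluster and 5.11%, 4.10% and 3.22% in ureteric tip-like cells. Within each of these 2 classes the spread was smaller, at 3653, 3940 and 4335 CPM in ureteric tip-like cells of Enl-WT and 7845, 7774 and 8104 CPM in its Sprr2f cluster. In NP1-like cells of the treated library it was 727, 1397 and 1379 CPM. The part of the mitochondrial share in the differences between libraries was not tested. Barcodes just outside the limits on cells gave sums of 4555, 6082 and 3261 CPM where the mitochondrial share exceeded 10%, and 4877, 8550 and 6120 CPM with over 6000 genes, against 4103, 5185 and 3863 CPM in all kept cells.

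Heat shock genes encode chaperones and their helpers, and are known to respond to many stresses, tissue dissociation among them. The 17 genes summed in the nephron to 13839 CPM in Enl-WT, 11595 CPM in Enl-T1 and 14594 CPM in Enl-T1 TDI-11055, and none was at 0. In Enl-T1 over Enl-WT their median was -0.41, -0.21, 0.06 and -0.40 in nephron, stroma, ureteric epithelium and endothelial cells, beside -0.40, -0.30, -0.30 and -0.31 for all genes. Relative to all genes it was thus highest in the ureteric epithelium. In the nephron 1 of 17 was at least 1.5-fold higher and 5 were lower, against 5.66% and 38.2% of all genes. Hspe1, a mitochondrial chaperonin, was 2.82 times as high in the nephron and 2.39 to 2.66 times as high elsewhere, while Hsph1 (0.534) and the co-chaperone Bag3 (0.435) were lower. In Enl-T1 TDI-11055 over Enl-T1 their median was 0.26, 0.48, 0.21 and 0.21, beside 0.0052, 0.02, 0.02 and -0.067 for all genes. Hspa1a, the inducible HSP70, was 9.49, 3.35, 7.10 and 9.08 times as high, Hspa1b 3.18 and the ubiquitin gene Ubb 1.91 times as high in the nephron.

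Of 40 other immediate early genes in the matrices, 34 to 39 could be compared per lineage. In Enl-T1 over Enl-WT, 12 of 35 were at least 1.5-fold higher and 2 lower in stroma, against 6.94% and 29.3% of all genes, and 14 of 39 were higher and 2 lower in the ureteric epithelium, against 5.74% and 26.9%. In the nephron 4 of 34 were higher and 14 lower, against 5.66% and 38.2%, and in endothelial cells 4 of 37 were higher and 8 lower, against 5.86% and 29%, so that the counts of lower genes in these 2 lineages were near those over all genes. Egr3, a zinc finger relative of Egr1, was 2.63, 5.34, 2.42 and 1.86 times as high in nephron, stroma, ureteric epithelium and endothelial cells, whereas Klf6 (0.195) and Csrnp1 (0.347) were lower in the nephron and below 1 elsewhere. In Enl-T1 TDI-11055 over Enl-T1 there was 1 gene higher in each lineage, against 9 lower in the nephron, 20 in stroma, 19 in the ureteric epithelium and 19 in endothelial cells, where 7.46%, 12.7%, 9.79% and 18.7% of all genes were lower. Egr3 had ratios of 0.127, 0.122, 0.218 and 0.104. The nuclear receptor Nr4a1 stood at 0.433 in the nephron, the FOS relative Fosl2 at 0.469, Cebpd at 0.585 and Zfp36l1, the paralogue of Zfp36, at 0.608, and each was below 1 in all 4 lineages. Gadd45g was higher, at 1.65.

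The 11 ERK feedback genes, which are induced by and restrain receptor tyrosine kinase signalling, had a median of -0.53, -1.01, -0.78 and -0.56 in Enl-T1 over Enl-WT, beside -0.40, -0.30, -0.30 and -0.31 for all genes. Of them 4, 10, 6 and 5 were at least 1.5-fold lower, with 0 higher, against 38.2%, 29.3%, 26.9% and 29% of all genes lower, so that the nephron count was near that over all genes. The MAP kinase phosphatase Dusp4 stood at 0.449, 0.131, 0.269 and 0.341, Spred3 at 0.480 and Spry4 at 0.505 in the nephron. In Enl-T1 TDI-11055 over Enl-T1 their median was 0.38, 0.53, 0.58 and -0.15 beside 0.0052, 0.02, 0.02 and -0.067 for all genes, with 3, 4, 5 and 3 higher and 0 lower against 7.32%, 10.8%, 7.68% and 9.32% of all genes higher, and Etv4, an ETS factor induced by ERK, was 1.95, 4.59, 3.10 and 3.58 times as high. Spry4 (2.18) and Etv5 (1.55) were also higher in the nephron. The 17 upstream kinases and factors had a median of -0.47 in the nephron in the first comparison, close to the -0.40 of all genes, with Srf, which encodes serum response factor, at 0.484, Mapk14 at 0.526, Map2k1 at 0.591 and Elk3 at 1.56, and of -0.18 in the second, with Mrtfb at 0.617, Elk3 at 0.631 and Elk4 at 0.663. Of the 11 AP-1 partners, 8 were compared in the nephron. Mafg stood at 0.450 there and Atf4 at 0.612 in Enl-T1 over Enl-WT, and in the treated library Atf4 was 1.54 times as high, Maf 0.538 and Atf7 0.659.

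Over the 27 points of 9 classes in 3 libraries, the level of Zfp36 followed that of the other 9 members most closely (Pearson r of 0.968 on log2(CPM + 1)) and that of Dusp1 least (0.707). Among 10907 genes outside the members, the 5 most like their sum were Btg2 (0.968), Lasp1 (0.926), Maff (0.922), Pnrc1 (0.912) and Nr4a1 (0.909), of which Btg2, Maff and Nr4a1 are themselves known immediate early genes. With r taken within each library and averaged, the first 5 were Btg2, Lasp1, Lrrk1 (0.947), Nr4a1 and Maff, and Pnrc1 was not among the first 10. These points share libraries, depth and dissociation, and the values are a description.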

How the data were processed

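Single-cell RNA-seq was done by the authors on dissociated embryonic day 15.5 mouse kidneys with the 10x Genomics 3′ assay. Per the submitters' processing notes, Cell Ranger 6.1.2 aligned reads to mm10. The authors deposited raw UMI counts per gene and barcode, filtered to called cells, for 3 libraries of 37221435, 63336586 and 76619303 UMIs (Enl-WT, Enl-T1, Enl-T1 TDI-11055).

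Cells with 1000 to 6000 genes and at most 10% mitochondrial UMIs were kept, as the study's filter has it. Clusters were made in Seurat 5.3.0 under R 4.3.3 (2000 variable genes, 30 principal components, resolution 0.5) without the 106 genes of the 6 lists and 128 technical genes, and were named from markers. Counts were summed per class and library (Python 3.11.15, numpy 2.4.6, scipy 1.17.1, pandas 2.3.3). Doublets were not removed; Scrublet, run in scanpy 1.11.5, marked 125, 45 and 3 cells by its own threshold, under 0.5% in 1 library, so leaving out its 301, 218 and 142 highest scores was an alternative.

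Levels have exact Poisson, ratios exact conditional binomial and shares Clopper-Pearson 95% intervals, which cover counting error only. Cells are not replicates, so no test was run. A gene counted as higher or lower at a ratio of at least 1.5-fold among genes with a mean of at least 5 CPM. The steps were checked on simulated counts. The 10 members and all lists were chosen with earlier results of these data known. All members are named; of each other list, genes at least 1.5-fold from 1 in the nephron and on the same side of 1 in all lineages are named, up to 5 each way (3 for the lists other than immediate early genes), and the 5 genes most like the summed members. Some genes that this rule names are not reported here. Column annotations other than gene and barcode were not used.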

Additional observations from a re-analysis of the deposited data

Results flagged for a closer look

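The same contrast, Enl-T1 over Enl-WT, put 4 members on opposite sides in different lineages, each by at least 1.5-fold. Fosb stood at 2.12 in the ureteric epithelium and 0.516 in endothelial cells. Atf3 stood at 1.57 in the ureteric epithelium and 0.370 in the nephron. Zfp36 stood at 1.54 in stroma and 0.451 in the nephron, and Dusp1 at 2.17 in the ureteric epithelium and 0.518 in the nephron. The share of all genes that lay on opposite sides in this way was not taken. Of all genes, 38.2% were at least 1.5-fold lower in the nephron and 29% in endothelial cells. In the ureteric epithelium 5.74% were at least 1.5-fold higher, and in stroma 6.94%. The median log2 ratio of the 10 members was 0.69 in the ureteric epithelium and -0.63 in the nephron. These nephron values are sums over nephron classes, whose makeup differed between the libraries. Within NP1-like cells, Atf3 stood at 22.9 CPM in Enl-WT and 20.8 CPM in Enl-T1. Zfp36 stood there at 20.9 and 24.8 CPM, and Dusp1 at 24.8 and 28.7 CPM. In proximal tubule-like cells the ratios were 0.282 for Atf3 and 0.378 for Zfp36. For Dusp1 the lowest ratio of any class was 0.734, in renin/mesangial-like cells. These differences between lineages were not tested, because each group was 1 library.

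Barcodes that no comparison used also held signal, high or low by kind. Barcodes with over 6000 genes and a mitochondrial share within the limit had a summed level of 8550 CPM in Enl-T1 (309 barcodes) and 6120 CPM in the treated library (577 barcodes), against 4877 CPM in the 55 such barcodes of Enl-WT. The barcodes with under 1000 genes and a mitochondrial share within the limit (969, 725 and 2298) were low, at 1303 CPM in Enl-WT, 2052 CPM in Enl-T1 and 1010 CPM in the treated library.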

How the results depend on the processing

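No paired analysis was possible because each group was 1 library, and for the same reason no replicate could be left out. Of the 40 ratios of a member in a lineage, the sign held in 410 of 440 values over 11 alternatives for Enl-T1 over Enl-WT, and in 209 of 209 for the 19 ratios past 1.5-fold. For the treated library over Enl-T1 it held in 424 of 440, and in 241 of 242 for the 22 past 1.5-fold. The exception was Fosb in endothelial cells with a Y-linked UMI and no Xist, at 0.30 on the log2 scale, from 34 and 35 cells.

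Medians of the members in Enl-T1 over Enl-WT (nephron, stroma, ureteric epithelium and endothelial cells: -0.63, 0.53, 0.69 and -0.36) moved up with size factors, to -0.23, 0.84, 1.00 and -0.075, and with totals free of mitochondrial, ribosomal protein and haemoglobin genes, to -0.35, 0.72, 0.83 and -0.16. With classes weighted equally the first 3 were -0.11, 0.71 and 0.58. Cells of 2000 to 6000 genes and at most 5% mitochondrial UMIs gave -0.70 in the nephron, 0.89 in the ureteric epithelium and -0.088 in endothelial cells. Thinning gave -0.52 in the nephron. Cells with Xist alone gave 0.37 in stroma and -0.57 in endothelial cells, and cells with Y-linked UMIs alone 0.53 in the ureteric epithelium.

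In Enl-T1 TDI-11055 over Enl-T1 (-0.29, -1.21, -0.61 and -0.83), classes weighted equally gave -0.96 in stroma and -0.17 in the ureteric epithelium, the stricter cells -1.03 and -0.46, and thinning -1.38 and -0.50. Cells with Y-linked UMIs alone gave -0.042, -1.05, -0.53 and -0.22. The cause of these shifts was not tested.

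The difference in the share of cells with a Fos UMI between Enl-T1 and Enl-WT in the nephron, 9.69 percentage points, was 29.9 without thinning and 19.5 at 4000 UMIs. That between the treated library and Enl-T1 was -17.5 in the nephron, and -26.1 without thinning and -27.4 at 4000 UMIs, and without thinning -25.8 in stroma and -19.6 in the ureteric epithelium. Its direction held throughout. Endothelial and stromal values of the treated library rest on 116 and 273 cells.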
